A study of Mus musculus with 3 samples.

Results

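The CXCR3 and CXCR6 chemokine pairs comprise 5 genes, 3 of which encode ligands and 2 of which encode receptors. Cxcl9 and Cxcl10 encode ligands of the receptor encoded by Cxcr3, and Cxcl16 encodes the ligand of the receptor encoded by Cxcr6. They were chosen by name as ligand and receptor, not by a measured value, though earlier results of these data were known. They were followed across cell classes, clusters and libraries. All 5 were among the 17168 genes of the deposited count table, and all 5 passed the filter on low counts that left 10895 genes for the tests between classes. The source was the sciatic nerve of NOD.AIRE GW/+ animals, 15 weeks old, of which the CD45+ fraction was profiled. Such animals carry an altered copy of Aire, a gene through which the thymus displays tissue antigens, on the NOD background that is prone to autoimmunity. All 3 libraries share this genotype and age, and wild-type nerves, which the series' design text also names, were not analysed here, so no value below measures an effect of genotype. Libraries 1 and 2 were 3′ libraries and library 3 was a 5′ library. The labels do not say whether a library came from 1 animal or a pool. Library was a block in the fits, so the p-values rest on differences within a library. Their spread over these 3 libraries was estimated jointly for all classes, clusters or sides of a fit, and partly shared across genes. A p-value therefore does not measure only a gene's own variation over the libraries. It is not known whether this is a spread between animals. Read end and library 3 cannot be told apart. The authors' name for library 1 alone ends in "pos", which the labels do not explain.

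CXCL9 and CXCL10 are secreted chemokines that interferon-gamma induces in macrophages, dendritic cells and other cells, CXCL10 also under type I interferon and NF-kB. Their receptor CXCR3 is carried by T helper 1 cells, effector CD8 T cells, part of the regulatory T cells, NK cells and plasmacytoid dendritic cells, and draws them into inflamed tissue. CXCL16 is made as a membrane-anchored protein that ADAM10 and ADAM17 can release, and its receptor CXCR6 marks effector and tissue-resident T cells, NKT cells and part of the gamma-delta T cells.

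Cxcl9 and Cxcl10 are neighbours on mouse chromosome 5. In GENCODE M21 (mm10) Cxcl9 lies on the minus strand at chr5:92321347-92328079, and Cxcl10 on the same strand at chr5:92346638-92348889, 18559 bases away. Cxcr3 lies at chrX:101731535-101734269 (minus strand), Cxcl16 at chr11:70453983-70459984 (minus strand) and Cxcr6 at chr9:123806475-123811760 (plus strand). The 250 bases before the start of Cxcl9 and of Cxcl10 are shown because these genes are neighbours and their products share a receptor. They are RefSeq sequences of GRCm38.p6, 5′ to 3′ on the gene's strand, at chr5:92328080-92328329 and chr5:92348890-92349139, with the motif matches in capitals.
Cxcl9: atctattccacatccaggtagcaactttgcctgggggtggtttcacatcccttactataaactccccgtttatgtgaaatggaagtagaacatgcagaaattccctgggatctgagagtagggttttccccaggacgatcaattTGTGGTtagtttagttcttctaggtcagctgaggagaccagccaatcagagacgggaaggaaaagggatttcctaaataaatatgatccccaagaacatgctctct
Cxcl10: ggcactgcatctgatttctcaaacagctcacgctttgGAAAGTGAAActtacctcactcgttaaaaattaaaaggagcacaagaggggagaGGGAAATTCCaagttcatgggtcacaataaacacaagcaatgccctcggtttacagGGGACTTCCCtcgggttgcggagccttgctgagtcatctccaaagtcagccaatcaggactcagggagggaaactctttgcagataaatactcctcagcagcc
In the Cxcl10 sequence the capitals mark 1 interferon-stimulated response element (GAAA, any 2 bases, GAAA, here GAAAGTGAAA, from -213 to -204 relative to the start) and 2 matches to the NF-kB consensus (from -159 to -150 and from -103 to -94), which do not overlap. In the Cxcl9 sequence they mark 1 RUNX motif (TGTGGT, from -106 to -101). Searches on both strands used the same 2 motifs, RUNX, the T-box motif GGTGTGA and the interferon-gamma activated site TTCNNNGAA. Of 32851 promoters of this length, 2.98% held the response element, 3.9% the NF-kB consensus, 14% the RUNX motif, 3.33% the T-box motif and 7.02% the interferon-gamma activated site. Promoter entries were matched for Cxcr3 and Cxcr6 as well, and each held 1 RUNX motif. A match is a description of letters and not a site of binding, and its part in the level of any gene was not tested.

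The table held 11640 cells in 10 classes named by the authors: Mac, cDC, pDC, Cd4, Treg, Cd8, gdT/NK/NKT, Mixed, B and Plasma. The libraries had 6033, 2333 and 3274 cells, with 22587246, 11398628 and 13791264 unique molecular identifiers (UMIs, each a counted transcript). All 6 macrophage markers were found in Mac, at a summed 9120.4 to 24915 CPM over libraries, against 446 to 1192 CPM in cDC. The 6 listed markers of conventional dendritic cells, which include Ccr7, did not set cDC apart from B, at 598 to 1688 CPM in cDC against 574 to 1608 CPM in B, and they summed to at most 25.7 CPM in Mac. The 3 regulatory T cell markers summed to 1764 to 3187 CPM in Treg and overlapped those of Cd4, at 639.9 to 2099.6 CPM. CPM is UMIs per 1000000 UMIs of the same class and library. The 3 neutrophil markers (S100a8, S100a9 and Ly6g) summed to 75.1, 209 and 124 CPM in Mac, with Ly6g at 0, against at most 20.2 CPM in any other class. Col1a1 and Dcn of fibroblasts summed to at most 3.22 CPM in Mac. Markers of T cells (Cd3e, Cd3d and Trac) were also counted outside T cells, above all in library 3, where they reached 523 CPM in Mac and 495 CPM in B, against 5.37 and 27.1 CPM in library 2. These values stand beside the receptor results below. The 5 genes had 9042 (Cxcl9), 6995 (Cxcl10), 5060 (Cxcl16), 5734 (Cxcr3) and 14257 (Cxcr6) UMIs in all.

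The 3 ligands averaged highest in Mac, followed by cDC. Cxcr3 averaged highest in Treg, Cd4 and Cd8, and Cxcr6 in Mixed, Cd8 and Cd4. With edgeR's quasi-likelihood test, 8 classes, those with 20 or more cells per library, were each set against the mean of the others, which gave 40 pairs of gene and class. Of these, 28 were called at an adjusted p under 0.05, 14 higher and 14 lower, while 30.9% of all gene and class pairs tested were called. The authors made the classes from the expression of these same cells, so a call says that a difference held across libraries and is no independent test of the class. The mean of the others includes Mac and cDC, so a low call of a ligand in a lymphocyte class is measured against those high levels.

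**Figure D1:**
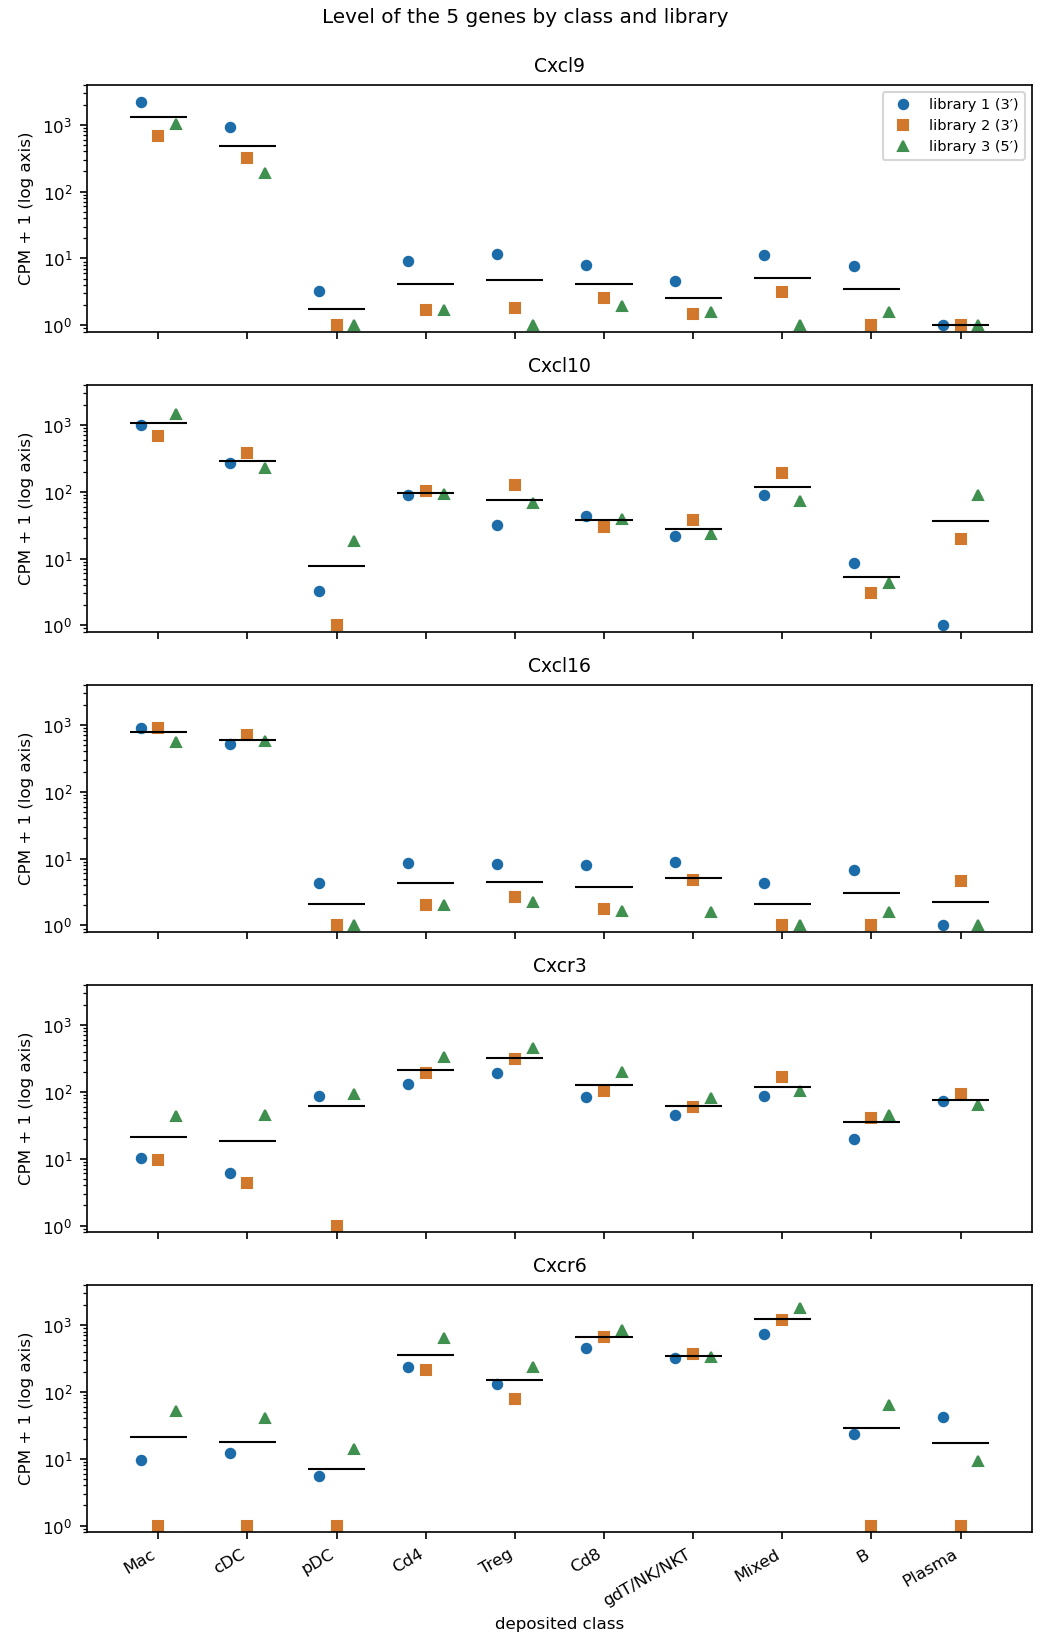
Level of each gene, as CPM + 1 on a log axis, in the 10 deposited classes; points are the 3 libraries and lines their means. Cxcl9 and Cxcl16 exceed 100 CPM in Mac and cDC, Cxcl10 stands at 88.7 to 101 CPM in Cd4 as well, Cxcr3 averages highest in Treg and Cxcr6 in Mixed.

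Cxcl9 was a transcript of Mac and, at lower levels, of cDC. Mac had 2208, 682 and 1009.7 CPM in libraries 1, 2 and 3, a mean of 1299.9 ± 804 CPM (SD, n = 3), and cDC had 919.7, 321 and 186 CPM, a mean of 475 ± 391 CPM. Within each library Mac was above cDC, although the ranges over libraries overlapped. Mac held 84.2 ± 9.48% of all Cxcl9 UMIs and cDC 14.5 ± 9.09%. In Mac against the other classes the log2 fold change was 8.21 ± 0.17 (SE; edgeR, adjusted p = 2.13e-22), and in cDC it was 6.16 ± 0.21 (adjusted p = 1.28e-17). Between these 2 classes, Mac minus cDC, Cxcl9 was higher by 1.80 ± 0.25 (edgeR, adjusted p = 5.5e-06), in 3 of 3 libraries. Without library 1, in which most Cxcl9 outside Mac and cDC was counted, the log2 fold change was 9.32 in Mac and 7.24 in cDC.

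Outside Mac and cDC, Cxcl9 was near 0, and its trace moved with the library. In library 1 it stood at 8.14 CPM in Cd4, 10.7 in Treg, 7 in Cd8 and 6.82 in B, and no cell of these 4 classes held more than 2 Cxcl9 UMIs. In libraries 2 and 3 the same classes had at most 1.55 CPM. The trace thus had a like level in T and B cells of 1 library. Macrophage markers moved the same way, at 63.9, 70, 84.2 and 57.4 CPM in Cd4, Treg, Cd8 and B of library 1 and at most 31.3 CPM in libraries 2 and 3. Their part in the trace was not tested.

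A Cxcl9 UMI was found in only part of Mac. With every cell thinned to 1000 UMIs, 44.6%, 19.4% and 27.6% of Mac had one in libraries 1, 2 and 3, and 23.7%, 11.1% and 6.06% of cDC. B cells, which stand in for the background, had 0.559%, 0% and 0% (0 of 88 and 0 of 386 cells, which allow up to 3.41% and 0.777%). Before thinning, median depths were 7094 to 9652 UMIs in Mac and 2884 to 4450 UMIs in B. Single macrophages held up to 240 Cxcl9 UMIs.

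Cxcl10 was highest in Mac too, but it was also counted in T cells. Mac had 996, 690.4 and 1452 CPM, a mean of 1046 ± 383 CPM (SD, n = 3), and cDC 268, 373 and 226 CPM, a mean of 289 ± 75.8 CPM. The 2 ranges did not overlap, and Mac minus cDC was 2.06 ± 0.31 on the log2 scale (edgeR, adjusted p = 1.99e-05). Against all other classes, Mac was higher by 4.62 ± 0.18 and cDC by 2.26 ± 0.24 (edgeR, adjusted p = 3.17e-17 and 1.87e-08). Mac held 56.3 ± 11.2% of the Cxcl10 UMIs. Cd4 T cells held 11.2%, 20.8% and 15.7% in libraries 1, 2 and 3 and cDC 14%, 7.82% and 3.29%, so cDC was ahead of Cd4 in library 1 and behind it in libraries 2 and 3.

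The Cxcl10 of Cd4 T cells was steady over libraries, at 88.7, 101 and 91.4 CPM (exact Poisson 95% intervals 80.5 to 97.6, 89.9 to 113 and 80.9 to 103, counting error only). It came from a minority of cells: after thinning, 4.74%, 4.15% and 3.98% of Cd4 cells had a Cxcl10 UMI, against 0.699%, 0% and 0.259% of B cells. Some of these cells held many UMIs. Before thinning, 46 of 1784, 35 of 784 and 22 of 1222 Cd4 cells had 3 or more, with up to 17, 25 and 36 in a cell, whereas no Cd4 cell had 3 Cxcl9 UMIs. Treg had 30.7, 125 and 66.9 CPM, Mixed 87.9, 192 and 71.1 CPM, Cd8 42.9, 28.3 and 37.6 CPM, and gdT/NK/NKT 21, 36.4 and 22.5 CPM. The ranges of neighbours in this order overlapped from Mixed down to gdT/NK/NKT. B cells were lower, at 7.48, 2.09 and 3.37 CPM, and were called against the others at -4.09 ± 0.40 (edgeR, adjusted p = 7.14e-09; -5.16 without library 1). Cd4 against the others was 0.13 ± 0.23 and was not called (edgeR, adjusted p = 0.745), with Mac and cDC among the others. Cd8 was below Cd4 by 1.19 on the log2 scale (Cd8 minus Cd4 -1.19 ± 0.31; edgeR, adjusted p = 0.0105).

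Inside Cd4 the transcript was higher in cluster 0, the largest Cd4 cluster, than in cluster 6. Cluster 6 had 3.29, 43.9 and 19.1 CPM, with 24 of its 26 UMIs in library 2 in 1 cell, against 107, 116 and 122 CPM in cluster 0. Cluster 6 minus cluster 0 was -2.58 ± 0.46 (edgeR, adjusted p = 0.000124; -3.55 without library 2). Among Plasma cells, 87 of the 92 Cxcl10 UMIs were in library 3, and 64 of them in 1 cell. pDC had 2.25, 0 and 17.6 CPM, the second from 2 cells.

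The balance of the 2 CXCR3 ligands differed between myeloid and T cells of the same library. Cxcl9 made up 68.9%, 49.7% and 41% of the summed Cxcl9 and Cxcl10 UMIs in Mac of libraries 1, 2 and 3, and 77.4%, 46.2% and 45.2% in cDC. In Cd4 it made up 8.41%, 0.656% and 0.73% (exact binomial 95% intervals 6.05 to 11.3, 0.0795 to 2.35 and 0.0885 to 2.61). In Treg the values were 25.8%, 0.658% and 0%, and in Cd8 14%, 5.19% and 2.4%. In each library the intervals of these 3 T cell classes lay below those of Mac and cDC. The intervals cover counting error only, and the part of free myeloid RNA in the T cell counts was not tested. In B cells of library 1 it was 47.7% (35.1 to 60.5, from 31 Cxcl9 and 34 Cxcl10 UMIs), between the T cell classes and Mac.

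**Figure D2:**
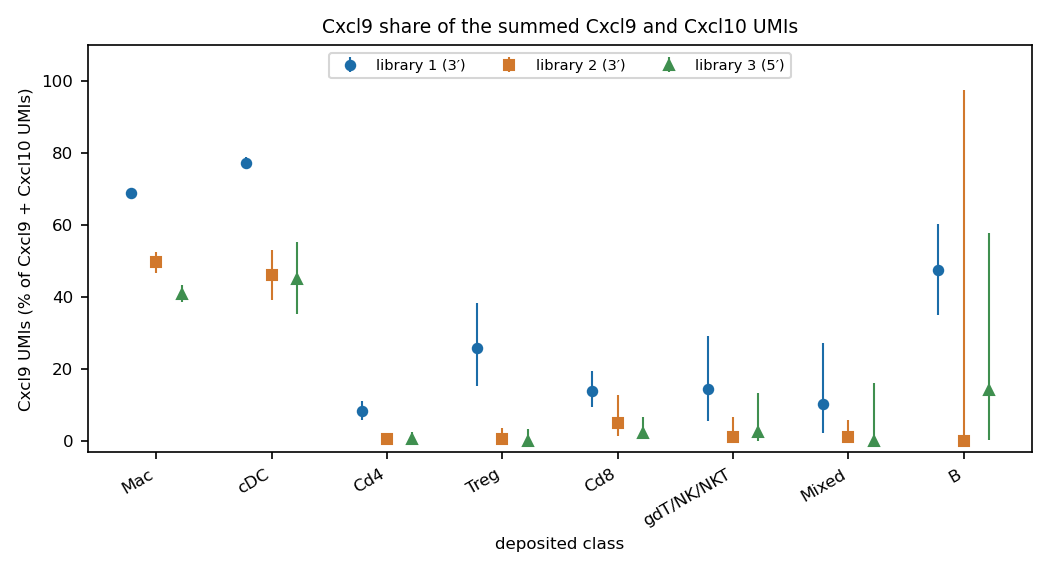
Percent of the summed Cxcl9 and Cxcl10 UMIs that were Cxcl9, by class, for each library, with exact binomial 95% intervals that cover counting error only. Mac and cDC lie at 41% to 77.4%, and Cd4 at 0.656% to 8.41%.

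Cxcl16, the CXCR6 ligand, was the most even of the ligands between Mac and cDC. Mac had 903, 893 and 563 CPM, a mean of 787 ± 193 CPM (SD, n = 3), and cDC 525, 713 and 566 CPM, a mean of 601 ± 99.1 CPM. The ranges overlapped, and in library 3 the 2 classes were within counting error (exact Poisson 95% intervals 509 to 622 CPM in Mac and 477 to 667 CPM in cDC). Mac minus cDC was 0.56 ± 0.31 and was not called (edgeR, adjusted p = 0.241), but with every cell thinned to 1000 UMIs it was 0.71 with an adjusted p of 0.0469. Mac held 72.2 ± 5.88% and cDC 25.6 ± 4.9% of the Cxcl16 UMIs, and every other class averaged at most 4.04 CPM. Against the other classes the log2 fold change was 7.39 ± 0.24 in Mac and 6.74 ± 0.27 in cDC (edgeR, adjusted p = 4.06e-19 and 2.01e-16), and without library 1 it was 8.97 and 8.69. After thinning, 47 ± 11% of Mac and 37.9 ± 4% of cDC had a Cxcl16 UMI, against 0.21 ± 0.363% of B cells (SD, n = 3).

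The genes that act on these ligands were read from lists made for the pathway. Of 14 genes of interferon and NF-kB signalling, 8 were higher and 3 lower in Mac than the mean of the other tested classes. Among the 8 higher genes, Nfkb1 (0.43 ± 0.16) had this sign in only 1 of 3 libraries and Ifnar1 (0.56 ± 0.14) in 2 of 3. In this contrast 25.8% of all genes were called higher and 22.1% lower, 47.9% in all. The median log2 fold change of the 14 genes was 0.49, against -0.08 over all genes. Ifngr2, a chain of the interferon-gamma receptor, was higher by 3.55 ± 0.14 (edgeR, adjusted p = 2.9e-17). Ifnar2, a chain of the type I interferon receptor, was higher by 1.57 ± 0.12 (edgeR, adjusted p = 2.32e-11). The transcription factor genes Stat2 and Irf1 were higher by 1.43 ± 0.14 and 1.32 ± 0.12 (edgeR, adjusted p = 3.55e-09 and 3.66e-10). Ifngr2 averaged highest in Mac, at 171 CPM, but the others did not. Stat2 averaged 67.4 CPM in Mac and 75.7 CPM in cDC. Ifnar2 and Irf1 averaged 192 and 432 CPM in Mac, against 481 and 702 CPM in pDC, which was not tested. The other chain of the interferon-gamma receptor, Ifngr1, was lower in Mac (-0.80 ± 0.19), as was the kinase gene Jak1 (-0.60 ± 0.11), which acts behind both receptors (edgeR, adjusted p = 0.0009 and 4.33e-05). The gene of interferon-gamma itself, Ifng, was a T cell transcript: Cd4 averaged 325 ± 45.8 CPM and Cd8 214 ± 45.8 CPM, against 8.2 ± 10.3 CPM in Mac (SD, n = 3 each). Of 7 genes that modify the ligands or share their receptors, 3 could be tested. Adam10 and Adam17, the proteases that release CXCL16, were higher in Mac than the mean of the other tested classes. The folds were 1.10 ± 0.12 and 1.69 ± 0.12 (edgeR, adjusted p = 4.19e-08 and 1.01e-11). Adam10 averaged 103 CPM in Mac and 108 CPM in Cd4, and Adam17 129 CPM in Mac and 133 CPM in the untested pDC. Dpp4, whose protease product trims CXCR3 ligands, was lower (-1.17 ± 0.36; edgeR, adjusted p = 0.00884), a call lost without library 1 (-1.25, 0.0888) and with thinned cells (-0.37, 0.64).

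Macrophages with a Cxcl9 UMI were set against macrophages without one, library by library, with every cell at 1000 UMIs. They numbered 162, 20 and 29 cells with, against 201, 83 and 76 cells without, so library 2 rests on 20 cells. Of 1109 genes tested, 16 were higher and 8 lower in cells with Cxcl9 (2.16% called). DESeq2 called 4 higher and 2 lower, and leaving out library 1 left 7 higher and 8 lower. Both other ligands were among the higher genes. Cxcl10 had 1321, 1100.0 and 1621 CPM in cells with Cxcl9, against 642, 446 and 1066 CPM in cells without (0.96 ± 0.17; edgeR, adjusted p = 4.82e-05). Cxcl16 had 1025, 1200.0 and 828 CPM with, against 761, 663 and 421 CPM without (0.64 ± 0.19; edgeR, adjusted p = 0.0442). Both were higher in 3 of 3 libraries. Neither call held in DESeq2 (adjusted p = 0.261 and 0.999) or with no filter on low counts (0.873 and 0.999). Leaving out library 1 also ended the Cxcl10 call (0.89, adjusted p = 0.0782), and leaving out any 1 library ended that of Cxcl16 (0.52 to 0.92, adjusted p 0.127 to 0.412). Cxcl16 was also not called without doublets (0.66, 0.0619) or with cells thinned to 2000 UMIs (0.45, 0.151).

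The share of cells with a UMI gave a different picture for the 2 ligands. A Cxcl10 UMI was found in 30.2% of macrophages with Cxcl9 and 15.9% without in library 1, but in 15% and 16.9% in library 2 and in 27.6% and 27.6% in library 3. A Cxcl16 UMI was found in 61.1%, 75% and 51.7% of those with Cxcl9, against 48.8%, 47% and 27.6% of those without, a higher share with Cxcl9 in each library. The third pair went the other way. A Cxcl16 UMI was found in 51.9%, 41.2% and 27.6% of macrophages with a Cxcl10 UMI (81, 17 and 29 cells). In macrophages without a Cxcl10 UMI the shares were 55%, 54.7% and 36.8%, higher in each library.

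Other chemokine genes split in both directions. The monocyte and T cell attractants Ccl5 (1.28 ± 0.15) and Ccl8 (1.24 ± 0.14) and the B cell attractant Cxcl13 (1.13 ± 0.16) were higher in macrophages with Cxcl9, while Ccl6 (-1.04 ± 0.29) and the neutrophil attractant Cxcl2 (-0.98 ± 0.21) were lower (edgeR, adjusted p = 4.77e-10, 4.58e-10, 1.91e-07, 0.0315 and 0.00116). Ccl6 lost its call in DESeq2 (-1.10, adjusted p = 0.999), with no filter (-1.21, 0.376), without doublets (-1.03, 0.0721) and without library 1 (-0.91, 0.661) or 2 (-0.89, 0.224). Cxcl2 lost it in DESeq2 (-0.97, adjusted p = 0.609) and without library 2 (-0.81, 0.178) or 3 (-0.84, 0.0709). Cxcl13 was not called with no filter on low counts (0.95, adjusted p = 0.0717). Spp1, which encodes osteopontin, was higher by 1.99 ± 0.38 (edgeR, adjusted p = 0.000184), in 3 of 3 libraries, but missed the threshold in DESeq2 (adjusted p = 0.0544) and with no filter (1.66, 0.087). The complement gene C1qa and the MHC class II gene H2-Ab1 were higher by 0.70 ± 0.16 and 0.67 ± 0.14 (edgeR, adjusted p = 0.00347 and 0.000887), neither of them in DESeq2 (adjusted p = 0.288 and 0.261) or with no filter (0.999 each), and C1qa not at 2000 UMIs (0.37, 0.283).

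S100a8, a calcium-binding protein of neutrophils and monocytes, showed the widest gap. It had 6.17, 50 and 0 CPM in macrophages with Cxcl9, against 269, 1145 and 579 CPM in those without (-5.18 ± 0.52; edgeR, adjusted p = 2.8e-12). Chil3, a gene of inflammatory monocytes and some macrophages, was also lower in 3 of 3 libraries (-1.86 ± 0.32; edgeR, adjusted p = 3.03e-05). The 3 neutrophil markers listed (S100a8, S100a9 and Ly6g) summed to 1, 1 and 0 UMIs in cells with Cxcl9, against 141, 95 and 44 UMIs in cells without, with Ly6g at 0. T cell markers summed to 30.9, 0 and 379 CPM with Cxcl9, against 19.9, 0 and 684 CPM without. The part of either marker list in the other differences was not tested.

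**Figure D3:**
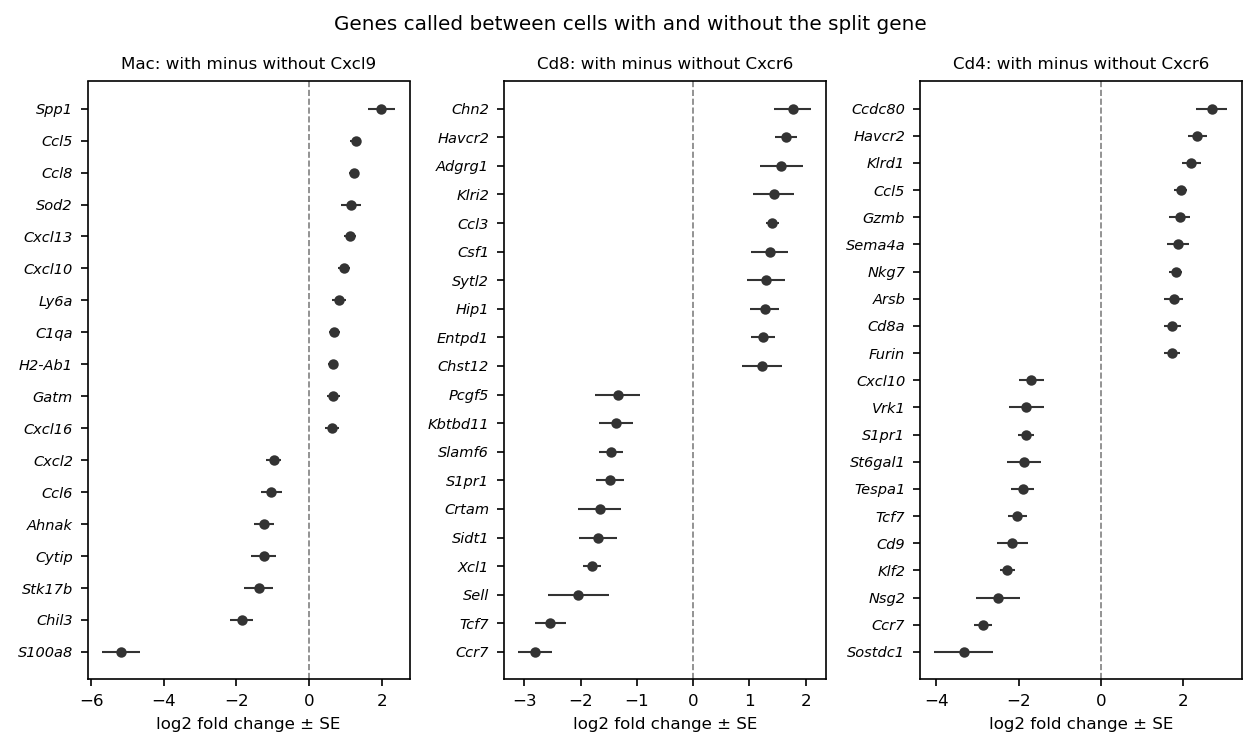
Log2 fold change ± SE between cells with and without a UMI of the gene named above each panel. Drawn are the genes called by edgeR with the largest change in either direction and the same sign in every library. Called members are drawn too, and some gene families were set aside. Other called genes are not drawn. From the left, the panels show Mac split by Cxcl9, Cd8 split by Cxcr6 and Cd4 split by Cxcr6. S100a8 lies at -5.18 in Mac, and Ccr7 at -2.81 in Cd8 and -2.87 in Cd4.

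Cxcr3 was highest in Treg, followed by Cd4 and Cd8. Treg had 189, 308 and 459 CPM, a mean of 318 ± 135 CPM (SD, n = 3), Cd4 had 129, 188 and 326 CPM, a mean of 214 ± 101 CPM, and Cd8 had 82.6, 102 and 196 CPM, a mean of 127 ± 60.3 CPM. In each library Treg was above Cd4 and Cd4 above Cd8, and in each of these classes library 3, the 5′ library, was highest, so the ranges over libraries overlapped. Against the other classes, Treg was higher by 2.30 ± 0.16, Cd4 by 1.71 ± 0.16 and Cd8 by 1.01 ± 0.17 (edgeR, adjusted p = 9.47e-11, 9.73e-09 and 6.02e-05), and Cd8 by 1.60 with thinned cells. Treg minus Cd4 was 0.52 ± 0.22 and Cd8 minus Cd4 -0.61 ± 0.22, and neither was called (edgeR, adjusted p = 0.161 and 0.0617). Without library 3, Cd8 minus Cd4 was -0.66 and passed (edgeR, adjusted p = 0.011). Cd4 held the most Cxcr3 UMIs, 38 ± 2.17%, with 23.8 ± 4.96% in Treg and 21.4 ± 2.82% in Cd8.

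Mixed had 84.6, 164 and 102 CPM of Cxcr3 and was called higher at 0.90 ± 0.24 (edgeR, adjusted p = 0.0134), in 2 of 3 libraries. That call was lost without library 1 (0.73, adjusted p = 0.205) or 2 (0.38, 0.573) and with thinned cells (0.97, 0.113). Below these in mean Cxcr3 came Plasma, gdT/NK/NKT, pDC and B, and then Mac and cDC. gdT/NK/NKT had 43.7, 57.9 and 80.6 CPM, below Cd8 in each library by a log2 fold change of -1.05 ± 0.24 (edgeR, adjusted p = 0.0028; -1.08 without library 1, adjusted p = 0.0671). pDC had 85.7 and 92.2 CPM in libraries 1 and 3, from 143 and 30 cells, and 0 UMIs in the 2 cells of library 2. Plasma had 70.7, 92.5 and 62.8 CPM in 7, 12 and 35 cells. B cells had 18.9, 39.7 and 44.4 CPM (-1.13 ± 0.24; edgeR, adjusted p = 0.000417). Mac had 9.09, 8.59 and 42.8 CPM and cDC 5.04, 3.27 and 43.6 CPM (-1.89 ± 0.28 and -2.71 ± 0.37; edgeR, adjusted p = 3.23e-06 and 1.4e-06). The cDC value was -1.96 without library 1, -3.41 without library 3 and -4.10 with thinned cells. In both, library 3 was the high one, as it was for T cell markers in Mac, and the part of free T cell RNA was not tested. After thinning, 25.2 ± 8.91% of Treg, 17.6 ± 6.25% of Cd4 and 12.3 ± 5.59% of Cd8 had a Cxcr3 UMI, against 1.55 ± 1.13% of Mac and 1.65 ± 0.617% of B (SD, n = 3).

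Cxcr6 had another order, with Mixed and Cd8 on top. Mixed, the authors' cluster 11, had 741, 1179 and 1770.3 CPM, a mean of 1229.9 ± 517 CPM (SD, n = 3), and Cd8 had 459, 652 and 855 CPM, a mean of 655 ± 198 CPM. Cd4 had 237, 209 and 638 CPM, gdT/NK/NKT 322, 373 and 326 CPM, and Treg 130.0, 76.9 and 237 CPM. Within each library Mixed was above Cd8 and Cd8 above the remaining classes, while over libraries the ranges of neighbours overlapped down to gdT/NK/NKT, which was above Treg in every library. B, Mac and cDC had 0 UMIs in library 2 (3 counts would be 6.26, 3.22 and 9.82 CPM) and 39.6 to 62.4 CPM in library 3, where T cell markers were also highest. Against the other classes, Mixed was higher by 3.53 ± 0.26, Cd8 by 2.65 ± 0.25, gdT/NK/NKT by 1.67 ± 0.28 and Cd4 by 1.33 ± 0.27 (edgeR, adjusted p = 1.64e-10, 1.32e-08, 4.62e-05 and 0.000483). The Cd4 call was lost in DESeq2 (1.40, adjusted p = 0.0701) and without library 1 (1.27, 0.0518). Cd8 held 45.2 ± 1.38% of all Cxcr6 UMIs. After thinning, 58.2 ± 14.4% of Mixed, 35 ± 5.6% of Cd8, 26.3 ± 3.15% of gdT/NK/NKT, 22 ± 9.34% of Cd4 and 9.99 ± 4.3% of Treg had a Cxcr6 UMI, against 1.38 ± 1.3% of B.

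Of 20 pairs of gene and contrast between related classes, 6 were called (14.0% of all such pairs were; 3 without library 1), 2 of them for Cxcr6. Cd8 minus Cd4 was 1.15 ± 0.37 and Treg minus Cd4 -1.28 ± 0.39 (edgeR, adjusted p = 0.038 and 0.0397), each in 3 of 3 libraries. Both calls were lost in DESeq2 (1.27, adjusted p = 0.355, and -1.28, 0.435). Cd8 minus Cd4 was not called without library 1 (1.25, 0.284) or 2 (0.79, 0.105), nor Treg minus Cd4 without library 1 (-1.44, 0.275), library 3 (-1.19, 0.0683) or cluster 5 (-1.14, 0.0603). Treg thus stood above Cd4 in Cxcr3 and below it in Cxcr6 in each library, of which the Cxcr6 difference passed the test.

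Within Cd8, Cd4 and gdT/NK/NKT the 2 receptors were set against each other cluster by cluster. By its name gdT/NK/NKT holds NK cells as well as T cells, so its clusters may differ in cell type. Of 15 pairs of gene and within-class contrast 5 were called (8.41% of all such pairs were), and Cxcr6 was called in all 3 contrasts. In Cd8, cluster 4 had 530.3, 1031 and 1313 CPM of Cxcr6, against 334, 215 and 409.6 CPM in cluster 3 (1.52 ± 0.36; edgeR, adjusted p = 0.00322). For Cxcr3 the same clusters had 50.4, 55.7 and 105 CPM in cluster 4, against 139, 156 and 284 CPM in cluster 3 (-1.54 ± 0.25; edgeR, adjusted p = 3.3e-05). Cluster 4 was thus the higher of these clusters in Cxcr6 and the lower in Cxcr3 in each library, and the groups overlapped for neither gene. The Cxcr6 difference missed the threshold in DESeq2 (1.56, adjusted p = 0.0555) and without library 2 (1.02, 0.0791).

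The Cd4 clusters went the same way for Cxcr6. Cluster 6 had 795, 592 and 1202 CPM of Cxcr6, against 147, 108 and 220.5 CPM in cluster 0 (2.29 ± 0.37; edgeR, adjusted p = 3.31e-05). Its Cxcr3 was 85.6, 99 and 235 CPM, against 138, 208 and 279 CPM in cluster 0 (-0.80 ± 0.26; edgeR, adjusted p = 0.0541), lower in each library but not called. It passed without library 3 (-1.04, adjusted p = 0.00429) and with no filter on low counts (-0.83, 0.0215). In gdT/NK/NKT, cluster 9 had 590.2, 536 and 1132 CPM of Cxcr6, against 160.4, 87.5 and 132 CPM in cluster 8 (2.42 ± 0.39; edgeR, adjusted p = 8.06e-05), while Cxcr3 gave 0.85 ± 0.32 (adjusted p = 0.176). Cluster 5, the third Cd4 cluster, spanned 263, 351 and 1399 CPM of Cxcr6 and 101, 283 and 566 CPM of Cxcr3, with library 3 far above the others in both. Its 1.15 ± 0.29 for Cxcr6 against the other clusters (edgeR, adjusted p = 0.00101) was 0.44 without library 3 (adjusted p = 0.43). Over all 12 clusters tested, 35 of 60 pairs of gene and cluster were called (27.3% of all pairs).

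**Figure D4:**
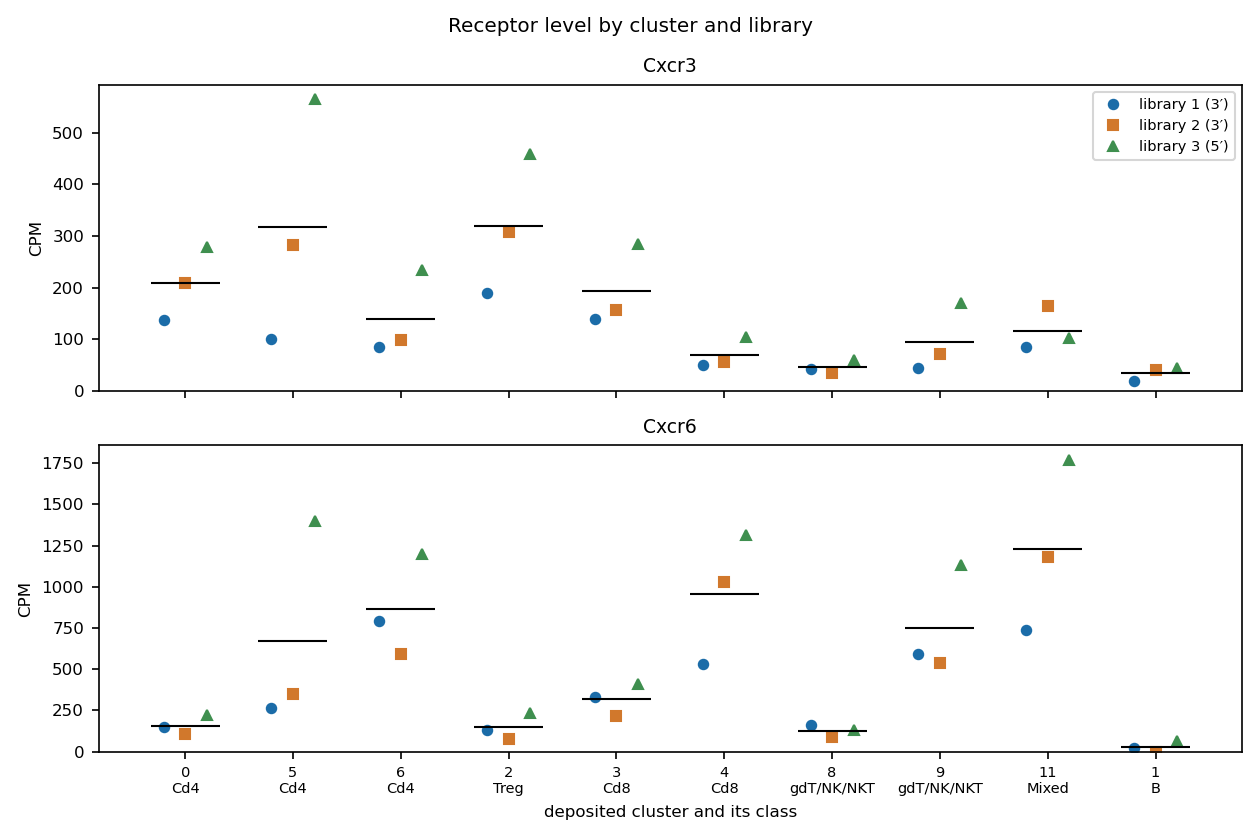
CPM of Cxcr3 (top) and Cxcr6 (bottom) in the deposited clusters of Cd4, Treg, Cd8, gdT/NK/NKT, Mixed and B. Points are libraries and lines their means. In Cd8, cluster 4 is above cluster 3 in Cxcr6 and below it in Cxcr3, and cluster 6 is above cluster 0 in Cxcr6.

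Cxcr3 UMIs were no more frequent in cells that held a Cxcr6 UMI. After thinning, a Cxcr3 UMI was found in 12.2%, 16.9% and 24% of Cd4 cells with a Cxcr6 UMI, against 12%, 16.4% and 24.5% of those without. In Cd8 the values were 7.67%, 6.29% and 15.2% with Cxcr6, against 7.87%, 12.5% and 20.9% without. In Treg they were 12.2%, 15% and 27.9% with Cxcr6, against 16.9%, 25.4% and 35.4% without. The Treg and Cd8 shares were thus lower with Cxcr6 in each library, though library 1 of Cd8 differed little and Treg with Cxcr6 rests on 49, 20 and 61 cells. The Cd4 shares lay within 1 percentage point of each other. In the fit over all genes, Cxcr3 differed between cells with and without Cxcr6 by -0.49 ± 0.19 in Cd8 and by -0.05 ± 0.18 in Cd4, and neither was called (edgeR, adjusted p = 0.128 and 0.95).

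Cd8 cells with a Cxcr6 UMI (326, 159 and 257 cells) were set against those without (712, 336 and 363 cells). Of 4392 genes tested, 117 were higher and 161 lower (6.33% called). Havcr2, which encodes the inhibitory receptor TIM-3, had 221, 321 and 159.5 CPM in cells with Cxcr6, against 64.6, 68.5 and 77.1 CPM without (1.65 ± 0.19; edgeR, adjusted p = 3.48e-15). The chemokine gene Ccl3 was higher by 1.41 ± 0.12, and Entpd1, which encodes the ectoenzyme CD39, by 1.24 ± 0.21 (edgeR, adjusted p = 8.21e-31 and 1.75e-07). Among the lower genes were the lymph node homing receptor gene Ccr7 (-2.81 ± 0.30), the transcription factor gene Tcf7 (-2.54 ± 0.27), the egress receptor gene S1pr1 (-1.48 ± 0.25) and Slamf6 (-1.46 ± 0.21). Their adjusted p in edgeR were 2.11e-18, 6.68e-19, 1.68e-07 and 3.49e-10. Xcl1, a chemokine gene, had 89, 189 and 132 CPM with Cxcr6, against 313, 449 and 545 CPM without (-1.80 ± 0.16; edgeR, adjusted p = 9.45e-27). Cluster 4 made up 64.4%, 76.7% and 63.4% of the cells with Cxcr6 and 47.8%, 31.8% and 29.2% of those without. With cells thinned to 2000 UMIs the folds of Havcr2 and Entpd1 were 2.29 and 2.28.

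Cd4 cells with a Cxcr6 UMI (270, 118 and 288 cells) were set against those without (1270, 629 and 591 cells) in the same way. Of 5596 genes tested, 148 were higher and 129 lower (4.95% called). The chemokine gene Ccl5 had 3452, 3161 and 4090.3 CPM with Cxcr6, against 591, 801 and 1415 CPM without (1.94 ± 0.15; edgeR, adjusted p = 1.3e-32). The cytotoxic granule genes Nkg7 and Gzmb were higher by 1.82 ± 0.15 and 1.92 ± 0.25, and Havcr2 by 2.35 ± 0.23 (edgeR, adjusted p = 8.3e-31, 1.22e-11 and 8.96e-21). Gzmb had 25.9, 67.8 and 375 CPM with Cxcr6, against 9.45, 19.1 and 84.6 CPM without. Havcr2 had 77.8, 42.4 and 476 CPM with Cxcr6, against 11.8, 20.7 and 79.5 CPM without. For both genes library 3 was the highest on each side. Ccr7 was lower by 2.87 (-2.87 ± 0.22), Klf2, a regulator of egress, by 2.28 (-2.28 ± 0.18) and Tcf7 by 2.03 (-2.03 ± 0.24), with adjusted p of 1.93e-34, 2.49e-31 and 5.64e-15 in edgeR. With cells thinned to 2000 UMIs Ccr7 was -2.17. Leaving out library 1 left 77 genes higher and 30 lower, and leaving out library 2 left 62 lower. Cluster 6 made up 43%, 51.7% and 34.7% of the cells with Cxcr6 and 9.61%, 18.6% and 11.7% of those without. Leaving out cluster 5 took the library 3 cells from 288 to 166 with Cxcr6 and from 591 to 476 without.

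Cxcl10 was among the genes lower in Cd4 cells with Cxcr6. It had 29.6, 67.8 and 17.4 CPM with Cxcr6, against 86.6, 84.3 and 117 CPM without (-1.69 ± 0.30; edgeR, adjusted p = 3.42e-06). The call was lost without library 3 (-1.11, adjusted p = 0.0536) and in DESeq2 (-1.59, 0.0502). A Cxcl10 UMI was found in 2.22%, 2.54% and 1.74% of Cd4 cells with Cxcr6, against 5.28%, 4.45% and 5.08% without. Of Cd4 cells with a Cxcr3 UMI, 5.95%, 2.44% and 3.74% had a Cxcl10 UMI, against 4.58%, 4.49% and 4.06% of those without, higher in library 1 and lower in libraries 2 and 3. In Cd8, Cxcl10 was -1.05 ± 0.44 with Cxcr6 and was not called (edgeR, adjusted p = 0.173), but passed without library 3 (-1.83, 0.0433) and with cells thinned to 2000 UMIs (-2.29, 9.52e-11).

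Cd8a, a gene of CD8 T cells, was also higher in Cd4 cells with Cxcr6, at 63, 50.8 and 865 CPM, against 42.5, 20.7 and 169 CPM without (1.74 ± 0.20; edgeR, adjusted p = 3.19e-15). The value of library 3 stood far above the others, and without that library the fold was 0.66 and not called (adjusted p = 0.472). Without cluster 5, an alternative chosen after seeing the data, it was -0.15 (adjusted p = 0.922), and 165 genes were then higher and 191 lower. Cells with CD8 transcripts inside the deposited class Cd4 thus moved with this split, and their part in its other differences was not tested beyond leaving out that cluster.

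Genes that are known to induce or transmit these receptors were counted from lists. Of 16 genes for the induction of CXCR3 and CXCR6, 8 were tested in the Cd8 split and 3 were higher (2.66% of all genes were), with a median of 0.23 against -0.01 over all genes, and 7 were tested in the Cd4 split and 3 were higher (2.64% of all genes were), with a median of 0.66 against 0.00. Il2rb, a chain of the receptors for interleukins 2 and 15, was higher with Cxcr6 in both, by 0.73 ± 0.12 in Cd8 and 0.92 ± 0.15 in Cd4 (edgeR, adjusted p = 7.13e-08 and 2.92e-07). Runx3 was higher by 0.46 ± 0.14 and 0.80 ± 0.18 (edgeR, adjusted p = 0.0267 and 0.000866), a call that neither split kept in DESeq2 (0.333 and 0.126) or without library 3 (0.38 with 0.204, and 0.63 with 0.124). In Cd8 it was also lost without library 1 (0.38, 0.401), with no filter (0.45, 0.102) and at 2000 UMIs (0.25, 0.205), and in Cd4 without cluster 5 (0.57, 0.0973). Of 18 genes of G protein signalling behind chemokine receptors, 17 were tested in each split, 4 were higher in Cd8 and 3 in Cd4, and none was lower. Rgs1, a brake on such receptors, was higher by 0.79 ± 0.09 in Cd8 and 1.04 ± 0.15 in Cd4 (edgeR, adjusted p = 3.02e-16 and 5.89e-10), in Cd4 not without library 1 (0.85, 0.135). Ifng, the inducer of both CXCR3 ligands, was higher with Cxcr6 by 0.85 ± 0.16 in Cd8 and 1.13 ± 0.15 in Cd4 (edgeR, adjusted p = 2.66e-06 and 1.51e-11), in Cd8 not without library 1 (0.68, 0.0632).

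Between clusters, the lists were counted in the 3 contrasts in which Cxcr6 was called higher. Of the receptor induction genes, 13 were tested in each, and cluster 4 minus 3 had 2 higher and 1 lower, cluster 6 minus 0 had 2 and 1, and cluster 9 minus 8 had 0 and 3. The shares of all genes called higher and lower were 7.85% and 6.86% (14.7% in all), 3.03% and 3.89% (6.91%), and 1.73% and 1.88% (3.60%). Prdm1, which encodes the factor BLIMP-1, was higher in cluster 6 than in cluster 0 by 2.60 ± 0.25 and in cluster 4 than in cluster 3 by 0.99 ± 0.24 (edgeR, adjusted p = 1.52e-09 and 0.00439), the second not without library 3 (0.81, 0.0543) or with thinned cells (0.63, 0.236). Tbx21, which encodes the T helper 1 factor T-bet, was higher in cluster 6 by 1.21 ± 0.29 (edgeR, adjusted p = 0.00506; 0.87 with thinned cells, 0.0849). The lower genes of cluster 9 were Il12rb2 (-2.92 ± 0.49) and Il18r1 (-1.15 ± 0.31), chains of the receptors for interleukins 12 and 18, and the transcription factor gene Eomes (-1.52 ± 0.30; edgeR, adjusted p = 0.000131, 0.0281 and 0.000986). Eomes was not called without library 1 (-1.21, 0.19) and was -2.26 without library 2. Il18r1 was the lower gene in the other 2 contrasts too (edgeR, adjusted p = 0.0477 in cluster 4 minus 3 and 0.0367 in cluster 6 minus 0). All 3 of its calls were lost in DESeq2 (adjusted p 0.145 to 0.191) and without library 1 (0.102 to 0.29) or 2 (0.0837 to 0.204), the first 2 also without doublets (0.0642 and 0.0538) and that in cluster 9 with thinned cells (-0.91, 0.251).

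Of the 14 interferon and NF-kB genes, 1 was higher and 6 lower in cluster 4 than in cluster 3, 1 and 2 in cluster 6 than in cluster 0, and 0 and 1 in cluster 9 than in cluster 8. Ifng was the higher one in both, by 1.85 ± 0.34 in cluster 4 and 1.19 ± 0.32 in cluster 6 (edgeR, adjusted p = 0.000148 and 0.0133), in cluster 6 not in DESeq2 (1.22, 0.277) or without library 1 (0.83, 0.277). The lower ones in cluster 4 included Ifnar2 (-1.09 ± 0.17) and Ifngr1 (-0.93 ± 0.21; edgeR, adjusted p = 1.15e-05 and 0.00162). Ifngr2 was lower in cluster 6 (-4.97 ± 0.68; edgeR, adjusted p = 2.45e-06; -7.48 without library 1, -4.22 without library 2), from a level of 14.3 ± 5.56 CPM over all Cd4 cells (SD, n = 3).

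The genes whose levels were most like each of the 5 were found by Pearson's r of log2(CPM + 1) over 24 points, 8 classes in 3 libraries, which share depth and library. Cxcl9 was most like Aif1 (r = 0.987), Cxcl16 (0.972) and Igsf6 (0.971), and Cxcl16 most like Rab7b (0.976), Slamf8 (0.975) and Cxcl9 (0.972). Aif1, a macrophage gene, had 1476, 1094 and 756 CPM in Mac and 873, 523 and 293 CPM in cDC, and at most 10.1 CPM in any other tested class. Cxcl10 had no gene as near, the first being Anxa5 (0.886), Sestd1 (0.874) and Cnih4 (0.873). Cxcr3 was most like Ccdc92 (0.956), Il27ra (0.949) and Ctla4 (0.947). Among the genes most like Cxcr6 were F2r (0.951) and the T cell marker Cd3e (0.928), and F2r had its highest level in Mixed too, at 135, 223 and 254 CPM. With 10 CPM added in place of 1 CPM, Aif1 came first for Cxcl9, Sestd1 for Cxcl10, Ctla4 for Cxcr3 and Slamf8 for Cxcl16, while Igsf6 was 51st for Cxcl9, Cxcl9 15th for Cxcl16 and Cd3e 19th for Cxcr6.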

How the data were processed

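UMI counts of 17168 genes in 11640 cells of 3 libraries were deposited by the authors as whole numbers, with their classes and clusters in a cell table. Seurat 4.0, mm10 and Cell Ranger 5.0.1 are named per the submitters' processing notes, and their roles are not given in the sources used here. The authors also deposited the percent of mitochondrial UMIs per cell, which was only looked at. Recomputed UMI and gene totals matched the cell table for each of the 11640 cells, and 6 barcodes occur in more than 1 library. Library depth was 11398628 to 22587246 UMIs. Cells were assigned to samples by library number and by equal cell numbers.

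UMIs were summed per class, cluster or side of a split and library, and tested with edgeR 4.0.16 in R 4.3.3 (quasi-likelihood F-test, TMM, filterByExpr, library as a block, Benjamini-Hochberg over all genes tested, called at adjusted p under 0.05). Classes and clusters needed 20 cells in every library and each side of a split 10, so pDC and Plasma were only described. A fold is a log2 fold change with its SE. In edgeR this SE was derived as the absolute log2 fold change divided by the square root of the F statistic. It is not an SE of 3 library values. The numbers pair the sums because each library gives cells to every class: deviations from the class means correlated within a library at 0.355 to 0.917 over 10895 genes. For shares and splits each cell was thinned to 1000 UMIs, which left out 624 of 3790 Cd4 cells and at most 46 cells of any other class. The gene that splits the cells was left out of that fit. Intervals are exact Poisson or binomial at 95%, and they and the limit of 3 counts behind a 0 cover counting error only. Scrublet (Scanpy 1.11.5) marked 75, 8 and 1 doublets, few enough in libraries 2 and 3 that it may have missed most. The fits were also run on simulated data, with a spread set higher than that of the Cd8 split. The outcome is not given here, and no result above rests on it.

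Genes named are the 5 members, the 3 most like each (1 of them is not reported here), called genes of the pathway lists, and in splits the called genes with the largest change in 1 direction in every library. Members and lists were chosen with earlier results of these data known. Alternatives were DESeq2 1.42.0, no filter on low counts, each library left out, no library block, no Scrublet doublets, no cluster 5, thinning to 1000 or 2000 UMIs and a pseudocount of 10 CPM in place of 1 CPM.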

Additional observations from a re-analysis of the deposited data

Results flagged for a closer look

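The differences that Cxcr6 marks were tested between Cd8 and Cd4 cells, as the change with minus without a Cxcr6 UMI in Cd8 minus that in Cd4. Of 5610 genes tested, 3 were higher and 15 lower in this difference (edgeR, 0.321% called; 386 had an unadjusted p under 0.05; 0 and 3 were called without library 1), and neither Cxcr3 (-0.44 ± 0.26, adjusted p = 0.848) nor Cxcl10 (0.64 ± 0.57, 0.935) was among them. Of the genes named in either split, 7 were called. All 7 had been named for a large change in the Cd4 split of these same cells. That choice by itself favours the signs found in Cd8 minus Cd4. Furin, a proprotein convertase gene (-1.84), the semaphorin gene Sema4a (-1.49), Klrd1 (-1.24), Cd8a (-1.22), the granule gene Nkg7 (-1.17) and the chemokine gene Ccl5 (-1.07) had a lower log2 change with Cxcr6 in Cd8 than in Cd4, and Klf2 a higher one (1.13). In DESeq2, Furin (-1.68), Sema4a (-1.39), Cd8a and Klf2 (1.05) had an adjusted p of 1 and Klrd1 (-1.20) of 0.557. All 7 calls were lost when 1 library was left out: without library 1 Furin (-1.24, adjusted p = 0.912), Sema4a (-1.54, 0.0688), Klrd1 (-1.12, 0.274), Nkg7 (-1.16, 0.0663), Ccl5 (-0.78, 0.738) and Klf2 (1.11, 0.276), and without library 3 Cd8a (-0.07, 0.992), Sema4a (-1.11, 0.724), Klrd1 (-1.17, 0.315) and Klf2 (0.70, 0.695). Without cluster 5, Cd8a was 0.71 (0.721), Klrd1 -0.46 (0.905) and Sema4a -0.91 (0.604).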

How the results depend on the processing

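Of the calls of the 5 genes, DESeq2 kept 66 and lost 11, no filter kept 75 and lost 2, leaving out doublets lost 1, leaving out library 1, 2 or 3 lost 15, 9 and 7, thinning to 1000 UMIs kept 66 and lost 8, and dropping the library block kept 40 and lost 37. The cause of these losses was not tested. B, Treg, Mac, cDC and Mixed hold the same cells as clusters 1, 2, 7, 10 and 11. Their sums thus enter this tally both as a class and as a cluster. Without the block that pairs sums of 1 library, calls were 17 of 28 (classes), 21 of 35 (clusters), 1 of 6 (related classes) and 1 of 5 (clusters within a class), and 0 in every split. With 1 library left out they were 26 to 28, 28 to 32, 3 to 6 and 4 to 6.

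For genes called higher and lower, DESeq2 gave 4 and 2 in the Cxcl9 split of Mac (16 and 8 in edgeR), 41 and 73 in the Cxcr6 split of Cd8 (117 and 161), 49 and 73 in that of Cd4 (148 and 129) and 0 and 4 in their difference (3 and 15). With no filter Mac had 3 and 5. Cells thinned to 2000 UMIs gave 27 and 14, 247 and 251, 266 and 259, and 12 and 26. With 1 library left out, higher calls were 7 to 13 in Mac, 80 to 91 in Cd8, 77 to 114 in Cd4 and 0 to 2 in the difference, and lower calls 6 to 8, 109 to 121, 30 to 115 and 3 to 10. No other count of calls moved by more than 1.5 times.

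Signs turned for these values: Cxcl10 in Treg against the others (-0.42) ran from -0.83 to 0.04 with 1 library left out, and Cxcr6 there (-0.13) from -0.37 to 0.02. Cxcr3 in gdT/NK/NKT against the others (-0.19) ran from -0.40 to 0.02 with 1 library left out and was 0.02 with cells thinned to 1000 UMIs, and in cluster 9 minus 8 (0.85) -0.04 when thinned. Cxcr3 in the Cd4 split (-0.05) ran from -0.09 to 0.02 with 1 library left out, and was 0.02 at 2000 UMIs and 0.03 without cluster 5. Cd8a was -0.15 in the Cd4 split and 0.71 in the difference without cluster 5. Of these, only Cd8a had been called; Cxcl10 in Treg passed without library 2 (adjusted p = 0.0207). Cell numbers limit the Mac split, with 20 cells with Cxcl9 in library 2, and values of cDC in libraries 2 and 3 rest on 28 and 34 cells.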
